A study of Homo sapiens with 4 samples.

Results

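The TRIM genes encode the tripartite motif proteins, most of which are ubiquitin ligases, and they were followed here in PC3 prostate cancer cells after knockdown of ALKBH3. Members were the genes whose RefSeq symbol is TRIM followed by a number, with an optional L and digit, reached through the transcript accession of each array probe because the spot tables carry no column of gene names. The array held 63 such genes, with 91 probes, among 19102 named genes. Of these, 46 could be tested among 14556 genes, and the other 17 were too dim. They were divided into 11 members known to be raised by type I interferon, all of which were tested, and the others, of which 35 were tested.

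PC3 is an established human cell line grown from a bone metastasis of a prostate carcinoma. The cells had been infected for 48 h with lentivirus carrying an shRNA against ALKBH3, a dioxygenase that removes methyl groups from damaged bases, or an shRNA against GFP as control, and were then kept under puromycin for 48 h or 96 h. An Agilent array in 1 colour was hybridised for each combination of shRNA and time, which gave 2 arrays per shRNA with the time points as the only repeat. The 48 h pair lay on a different slide from the 96 h pair, so time and slide cannot be told apart, whereas the shRNAs were always compared on the same slide. All 4 RNAs came from cells with a lentiviral shRNA, none from uninfected cells, and the ALKBH3 shRNA construct is not named in the labels.

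A TRIM protein begins with a RING domain, which recruits a ubiquitin-conjugating (E2) enzyme, followed by B-box zinc fingers and a coiled coil through which the proteins pair. The carboxy-terminal domain then differs between subfamilies and binds the target, most often through a SPRY domain. Many members act in innate immunity: some recognise viral capsids or antibody-coated viruses, others attach ubiquitin to sensors such as RIG-I, and a subset is transcribed in response to interferon through response elements bound by STAT and IRF factors.

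The response element was looked for as the letters GAAANNGAAA on either strand in the RefSeq promoter table of GRCh38.p14, which spans 300 bases a promoter, 250 before the transcript start and 50 from it on. It was found in 6 of the 10 interferon-inducible members with an entry (60%), in 2 of the 39 other TRIM genes with one (5.13%), and in 4.38% of the 27305 genes in the table. TRIM22 had no entry. The 6 promoters are shown because they belong to members described below. At 48 h 5 of those members were at least 1.5-fold higher with ALKBH3 shRNA (5.1% of all genes), the exception being TRIM26. Of the members with an entry and no match, TRIM6 was 1.53-fold higher at 48 h, and TRIM25, TRIM38 and TRIM56 were less than 1.5-fold higher. The promoters are written 5′ to 3′ on the strand of the gene, with the matched letters in capitals.
TRIM5 (GRCh38.p14, chr11:5685025-5685324, minus strand): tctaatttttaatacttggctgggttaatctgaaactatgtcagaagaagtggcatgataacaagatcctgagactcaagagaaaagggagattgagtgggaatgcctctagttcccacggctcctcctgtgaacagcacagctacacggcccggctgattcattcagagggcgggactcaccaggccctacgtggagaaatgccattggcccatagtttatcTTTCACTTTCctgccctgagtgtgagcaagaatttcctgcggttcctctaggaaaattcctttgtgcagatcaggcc
TRIM14 (GRCh38.p14, chr9:98119173-98119472, minus strand): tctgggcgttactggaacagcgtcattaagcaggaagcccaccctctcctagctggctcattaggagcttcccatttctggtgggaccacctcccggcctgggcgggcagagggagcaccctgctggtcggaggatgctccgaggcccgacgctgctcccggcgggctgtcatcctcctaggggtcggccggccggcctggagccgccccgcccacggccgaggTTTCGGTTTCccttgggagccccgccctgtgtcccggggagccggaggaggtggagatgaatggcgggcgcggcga
TRIM21 (GRCh38.p14, chr11:4393653-4393952, minus strand): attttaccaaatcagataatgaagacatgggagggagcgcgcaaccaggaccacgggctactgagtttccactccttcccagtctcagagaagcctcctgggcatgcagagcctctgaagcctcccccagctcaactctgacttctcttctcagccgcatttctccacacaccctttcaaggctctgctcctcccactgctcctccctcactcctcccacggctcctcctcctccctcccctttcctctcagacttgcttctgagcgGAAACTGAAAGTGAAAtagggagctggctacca
TRIM26 (GRCh38.p14, chr6:30213357-30213656, minus strand): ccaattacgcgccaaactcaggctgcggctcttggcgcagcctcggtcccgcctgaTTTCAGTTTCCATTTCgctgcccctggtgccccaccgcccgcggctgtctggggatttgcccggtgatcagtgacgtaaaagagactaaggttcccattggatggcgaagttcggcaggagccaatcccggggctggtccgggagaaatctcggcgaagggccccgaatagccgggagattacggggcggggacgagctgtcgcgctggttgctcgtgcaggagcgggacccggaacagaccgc
TRIM34 (GRCh38.p14, chr11:5624751-5625050, plus strand): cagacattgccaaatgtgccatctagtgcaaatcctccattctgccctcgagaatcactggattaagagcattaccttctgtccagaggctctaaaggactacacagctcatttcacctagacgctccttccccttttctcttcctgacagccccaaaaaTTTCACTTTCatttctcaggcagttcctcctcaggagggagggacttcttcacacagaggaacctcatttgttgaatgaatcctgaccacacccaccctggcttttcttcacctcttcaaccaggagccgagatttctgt
TRIM69 (GRCh38.p14, chr15:44736278-44736577, plus strand): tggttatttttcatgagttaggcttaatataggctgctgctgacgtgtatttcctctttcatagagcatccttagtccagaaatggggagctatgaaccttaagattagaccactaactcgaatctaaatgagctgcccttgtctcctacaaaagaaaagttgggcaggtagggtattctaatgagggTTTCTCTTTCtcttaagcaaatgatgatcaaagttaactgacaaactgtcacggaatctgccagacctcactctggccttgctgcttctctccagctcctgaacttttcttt
With the first transcribed base as 0, the match lay at -27 to -18 in TRIM5 and at -26 to -17 in TRIM14, in both on the strand opposite to the gene. In TRIM21 a pair of overlapping matches ran from 17 to 32 on the strand of the gene, past the start. TRIM34 held it at -90 to -81 and TRIM69 at -62 to -53, and TRIM26 had a pair of overlapping matches from -194 to -179, all on the opposite strand. Among the other TRIM genes only TRIM2 and TRIM44 had a match, and their folds at 48 h were 0.74 and 1.12. A match is a run of letters, and binding was not measured.

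**Figure D1:**
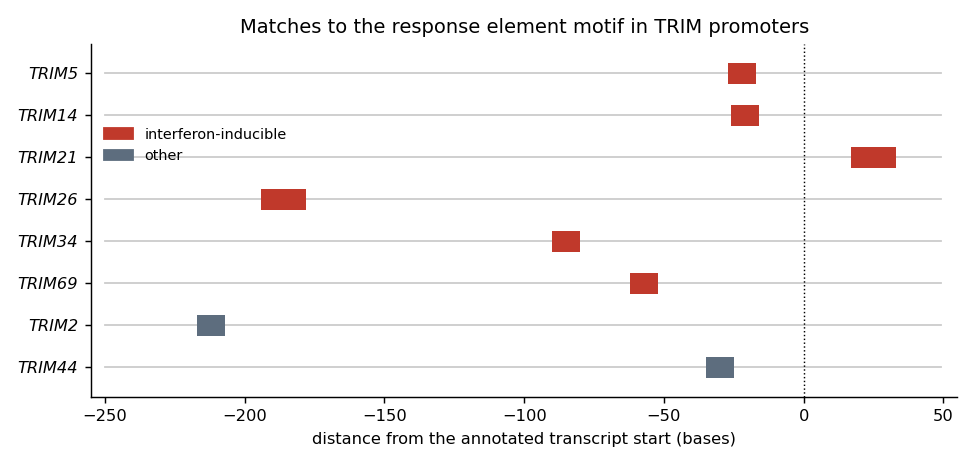
Position of each match to GAAANNGAAA (bars) in the 8 TRIM promoters that held it, against distance from the annotated transcript start in bases, with the 6 interferon-inducible genes in red and TRIM2 and TRIM44 in grey. Grey lines give the window searched, and 4 of the 6 red genes had their match within the last 100 bases before the start.

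Values are log2 signals relative to the 75th percentile of their own array, so 0 is the signal at that percentile and a log2 fold change is ALKBH3 shRNA minus control shRNA. The 75th percentile lay at an intensity of 2150 to 2394, 67.0% to 70.9% of the probes were well above background on an array, and 0 spots were saturated. The target of the shRNA, ALKBH3, was lower by a log2 fold change of -1.74 on the 48 h arrays and -1.51 on the 96 h arrays. Of the markers expected in PC3, KRT8, KRT18, EPCAM, VIM and CD44 were well above background on all 4 arrays, and KLK3, which PC3 cells lack, on 0. EPCAM was itself higher with ALKBH3 shRNA, with a log2 fold change of 0.98 over the arrays, and the other 4 lay between -0.13 and 0.03. The leukocyte markers PTPRC, CD3E and CD14 were above background on all 4, at log2 signals of -5.65 to -2.88, with log2 fold changes of -0.09 to 0.23. Of the fibroblast markers PDGFRB was above background on 0 arrays. COL1A1 was above background on all 4, at log2 signals of -1.44 to -0.26, with a log2 fold change of 0.71. The part of these markers in the TRIM values was not tested.

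The interferon-inducible TRIM genes stood higher with ALKBH3 shRNA at 48 h and closer to the control at 96 h. All 11 had a higher signal at 48 h, with a median log2 fold change of 0.70 (1.63-fold), and 8 of 11 at 96 h, with a median of 0.15 (1.11-fold). A fold of at least 1.5 was reached by 7 of 11 at 48 h, where 5.1% of all genes reached it, and by 0 at 96 h, where 4.43% did. In each of the 11 the log2 fold change was larger at the earlier time, by a median of 0.51, against 47.2% of all genes with a median of -0.01. These values set 1 array against 1 array and carry no test. In RNA of whole cultures, more cells with a signal and more RNA per cell cannot be told apart. Over the 4 arrays the median log2 fold change of the list was 0.55, that of the 35 others 0.04 and that of all genes tested -0.0030. For the 5 members that had been given as examples of interferon-inducible TRIM genes (TRIM5, TRIM14, TRIM21, TRIM22 and TRIM25), the medians were 1.08 at 48 h and 0.26 at 96 h.

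TRIM22, an antiviral ligase that restricts retroviruses and other viruses, gave the widest gap between time points. Its log2 signal was -2.81 in the control and -0.73 in the knockdown at 48 h, and -3.32 and -3.33 at 96 h. The 48 h knockdown array stood 4.22-fold above its control and apart from the other 3 arrays. Over 4 arrays the log2 fold change was 1.03 ± 0.89 (SE), with an adjusted p of 0.886 in limma.

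TRIM21, a cytosolic receptor for antibody on incoming virus, had log2 signals of -2.45 and -0.87 at 48 h and of -2.50 and -2.17 at 96 h, control first. Both knockdown arrays were above both controls, by 2.98-fold at 48 h and 1.26-fold at 96 h. Over 4 arrays this was a log2 fold change of 0.96 ± 0.45 (SE).

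TRIM14, an adaptor of the mitochondrial antiviral signalling complex, had log2 signals of 0.01 and 1.08 at 48 h and of -0.03 and 0.42 at 96 h, again with the groups apart. The log2 fold change was 1.08 and 0.45 at the time points and 0.76 ± 0.25 (SE) over the arrays, with a limma adjusted p of 0.547. The gene has 4 probes to its transcripts, all well above background on every array, with log2 fold changes over the 4 arrays of 0.54 to 0.80.

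TRIM5, TRIM6, TRIM22 and TRIM34 are neighbours on chromosome 11. The annotation there also holds a transcript joining TRIM6 and TRIM34, so that probes of TRIM6 and TRIM34 may read a shared transcript. TRIM5, which binds the capsid of incoming retroviruses, had log2 signals of -2.55 and -1.70 at 48 h and of -2.58 and -2.32 at 96 h. TRIM34, a related capsid-binding protein, had -3.89 and -3.06 at 48 h and -4.47 and -4.06 at 96 h. In TRIM5 both knockdown arrays were above both controls, whereas in TRIM34 the knockdown array at 96 h lay below the 48 h control. Their log2 fold changes were 0.55 ± 0.23 and 0.62 ± 0.40 (SE), and the second TRIM34 probe had 0.42. After normexp TRIM34 had 0.36.

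TRIM6, which makes free ubiquitin chains that activate the kinase IKBKE in interferon signalling, had the most similar fold at the time points of the list, with TRIM25 next. Its log2 signals were -1.67 and -1.06 at 48 h and -1.73 and -1.17 at 96 h, with both knockdown arrays above both controls. The log2 fold change of 0.58 ± 0.12 (SE) had an unadjusted p of 0.0056 and an adjusted p of 0.354 in limma, and an adjusted p of 0.042 with time point as a block. A second, dimmer TRIM6 probe had a log2 fold change of 0.13.

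TRIM69, which restricts some RNA viruses, had log2 signals of -1.73 and -1.03 at 48 h and of -1.91 and -1.80 at 96 h. The 48 h knockdown array was above both controls, and the 96 h one lay between them. TRIM26, a regulator of antiviral signalling, had log2 fold changes of 0.44 at 48 h and 0.14 at 96 h. TRIM38, which limits Toll-like receptor signalling, had 0.45 and -0.03, and TRIM56, a ligase linked to the STING pathway, had 0.41 and -0.09. In TRIM38 and TRIM56 the 96 h arrays differed by less than 0.1.

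TRIM25, the ligase that attaches ubiquitin to RIG-I, was among the smallest of the list. Its log2 signals were 3.38 and 3.59 at 48 h and 3.23 and 3.37 at 96 h, so the 96 h knockdown array lay just below the 48 h control. The log2 fold change was 0.18 ± 0.14 (SE).

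**Figure D2:**
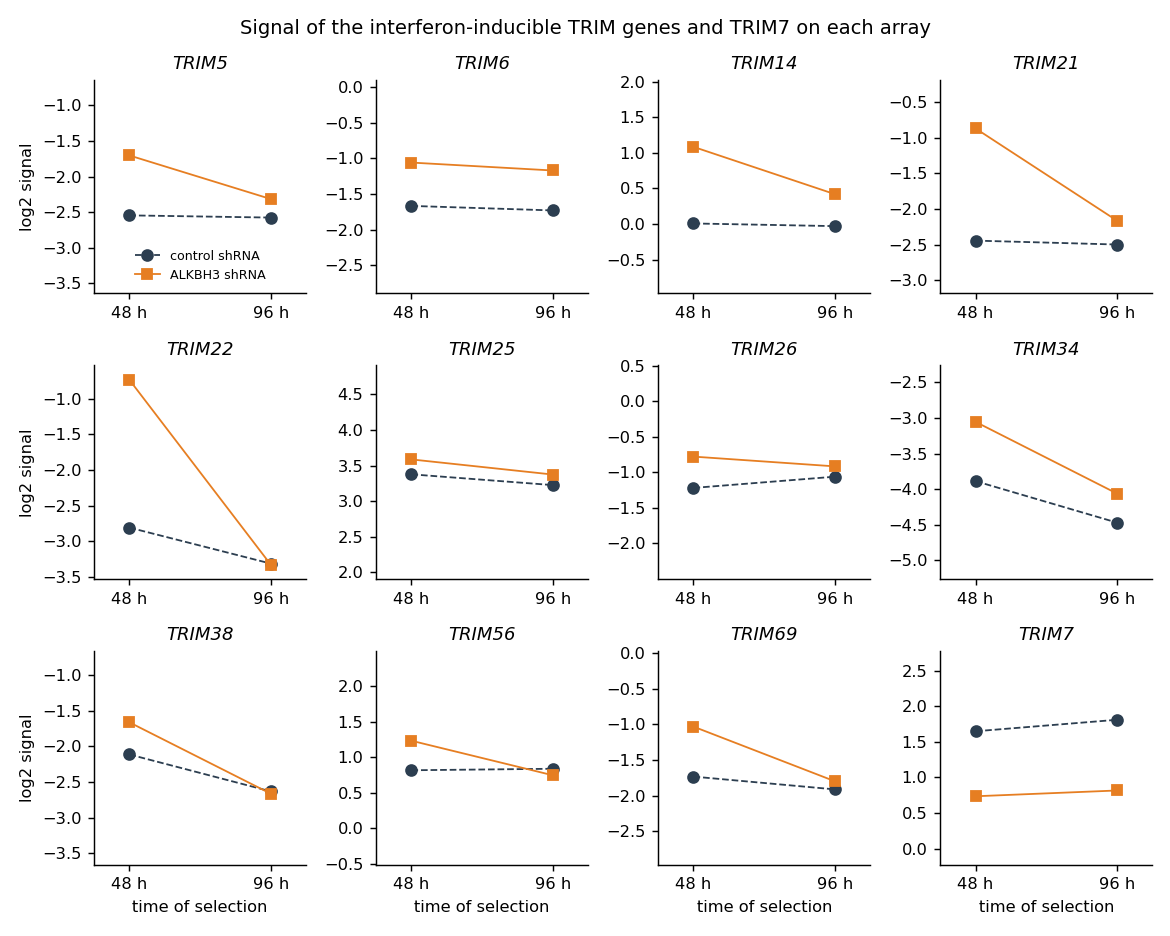
Log2 signal relative to the 75th percentile (vertical axis, each panel 3 units high) at 48 h and 96 h of selection for the 11 interferon-inducible TRIM genes and TRIM7, with control shRNA as circles and ALKBH3 shRNA as squares, 1 array a point. The knockdown line falls towards the control line in most interferon-inducible panels, from 4.22-fold to level in TRIM22, while the TRIM7 lines run parallel with the knockdown below.

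The same 4 arrays were also read along time, within each shRNA but across slides, so these values cannot be told apart from a difference between slides. From 48 h to 96 h the median log2 change of the 11 genes was -0.06 with control shRNA, where 9 were lower at 96 h, and -0.67 with ALKBH3 shRNA, where all 11 were. For the 35 other TRIM genes these medians were 0.0062 and 0.02. TRIM22 differed by -0.51 in the control and by -2.60 in the knockdown, and TRIM21 by -0.05 and -1.30. In limma with shRNA and time as terms, 8 TRIM genes passed an adjusted p of 0.05 for time, against 12.8% of all genes, and 15 had an unadjusted p below 0.05, against 35%. The number past the adjusted p was 0 with no filter on dim probes or without the shRNA term, and 16 to 19 with normexp, normexp with quantile normalization or the authors' values. The 8 were TRIM2 (-0.90), TRIM31 (-1.01), TRIM34 (-0.80) and TRIM38 (-0.76), lower at 96 h, and TRIM3 (0.45), TRIM47 (0.51), TRIM59 (0.45) and TRIM61 (0.56), higher at 96 h, as log2 differences over both shRNAs. The 96 h control of TRIM31 was not well above background, so its difference rests in part on that dim array.

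**Figure D3:**
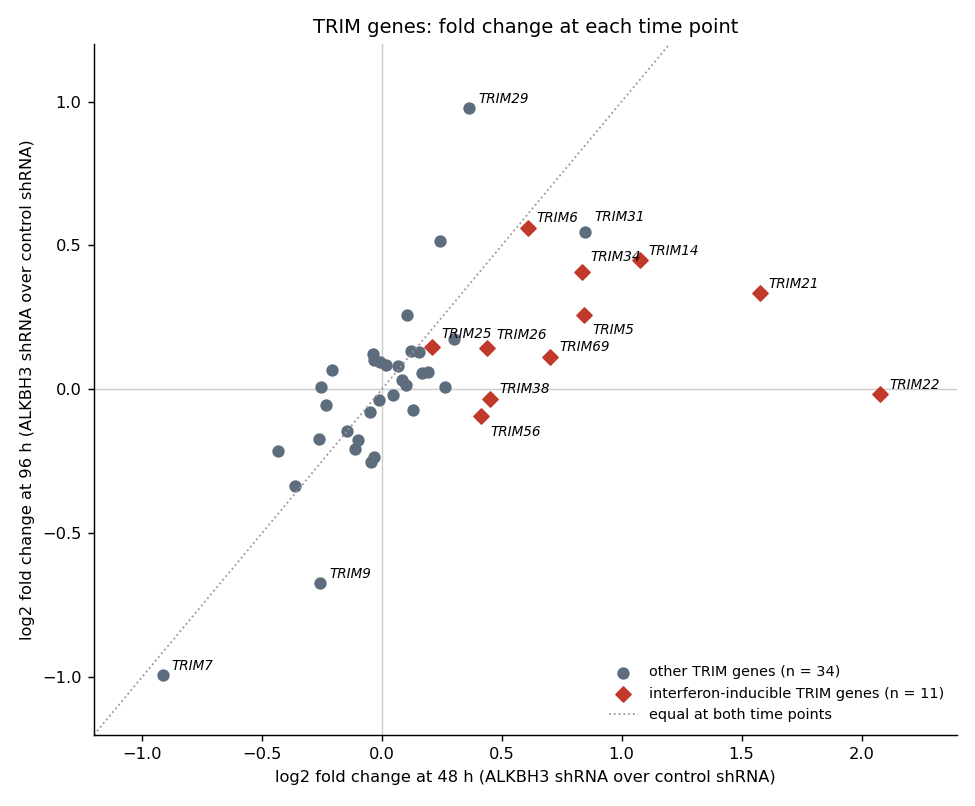
Log2 fold change, ALKBH3 shRNA over control shRNA, at 48 h (horizontal) against 96 h (vertical) for 45 of the 46 TRIM genes tested, each from 1 pair of arrays, with the 11 interferon-inducible genes as red diamonds and the others in grey. All 11 diamonds lie below the dotted line of equal change, and TRIM7 lies far down on it at -0.91 and -0.99. TRIM54 is not drawn, its 48 h control being not well above background and its 48 h value of 4.51 lying beyond the axis. TRIM29 and TRIM31 are drawn, although their 96 h controls were not well above background.

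Outside the interferon-inducible list the TRIM genes were spread about 0. Of the 35, 20 were higher and 15 lower over the 4 arrays, 15 were higher at both time points and 13 lower at both. A fold of at least 1.5 upward was seen for 2 at 48 h, TRIM31 and TRIM54 (5.1% of all genes), and for 1 at 96 h, TRIM29 (4.43%). The 48 h control of TRIM54 and the 96 h control of TRIM29 were not well above background. Downward it was seen for 1 at 48 h, TRIM7 (1.99% of all genes), and for 2 at 96 h, TRIM7 and TRIM9 (2.08% of all genes).

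No TRIM gene met the cutoffs of the study, a 2-fold difference with an unadjusted p below 0.05, in either direction, against 1.04% of all genes for higher and 0.234% for lower. Past an adjusted p of 0.05 in limma there were 0 TRIM genes and 0% of all genes. An unadjusted p below 0.05 was reached upward by 3 of 46, TRIM14, TRIM6 and TRIM29 (4.7% of all genes), and downward by 3, TRIM7, TRIM9 and TRIM37 (3.63% of all genes). After normexp background correction, alone or with quantile normalization, and with the values normalized by the authors, 3 in all had an unadjusted p below 0.05, TRIM14, TRIM6 and TRIM7. TRIM29, TRIM31 and TRIM54 were tested only because both knockdown arrays were well above background, with 1 control array below, while the other 43 were above on all 4 arrays. With time point as a block, TRIM6 and TRIM31 passed the adjusted p upward (2.96% of all genes) and TRIM7 downward (1.5% of all genes). An exact permutation test of 2 arrays against 2 cannot give a p below 0.333.

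TRIM7, a SPRY ligase first found as a partner of glycogenin, stood lowest and differed alike at both time points. Its log2 signals were 1.65 and 0.74 at 48 h and 1.81 and 0.82 at 96 h, control first, so both knockdown arrays lay well below both controls. The log2 fold changes were -0.91 and -0.99 at the time points and -0.95 ± 0.12 (SE) over the arrays, short of 2-fold, with a limma adjusted p of 0.330, and of 0.026 with time point as a block. A second TRIM7 probe, to another transcript and with signals of -3.84 to -3.11, had a log2 fold change of -0.11.

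TRIM31, an epithelial ligase that acts on the adaptor MAVS, had log2 signals of -5.61 and -4.76 at 48 h and of -6.47 and -5.92 at 96 h, the 96 h control not being well above background. The fold was 1.80 at 48 h and 1.46 at 96 h, the latter measured against that dim control. Its log2 fold change was 0.70 ± 0.49 (SE), and limma with the time point block gave an adjusted p of 0.048, values that rest in part on that dim control. After normexp background correction the log2 fold change was 0.18. TRIM29, an epithelial member without a RING domain, had log2 signals of -6.48 and -6.11 at 48 h and of -6.76 and -5.78 at 96 h. Its 96 h control was also not well above background. With that control set to the weakest signal counted as well above background on its array, the 96 h fold was 1.65. This setting is not a strict limit, since some dim probes lie above it. Its log2 fold change over the arrays was 0.67, and 0.09 after normexp (unadjusted p of 0.516 in limma).

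TRIM54, a muscle protein that binds microtubules, had log2 signals of -8.64 and -4.12 at 48 h and of -4.28 and -3.82 at 96 h. The 48 h control alone was not well above background and stood far below the other 3 arrays. The 48 h difference is therefore not exact, and was 6.62-fold with the control set in the same way. At 96 h the log2 fold change was 0.46, and over the arrays it was 2.49, or 0.92 after normexp. The other tested members with a similar structure were TRIM9 and TRIM46, which carry fibronectin and SPRY domains. TRIM9, a neuronal ligase, had log2 fold changes of -0.26 and -0.67 at 48 h and 96 h, and its 3 probes gave -0.67 to -0.46 over the 4 arrays.

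The class with a PHD finger and bromodomain holds chromatin regulators, and its 4 members were near 0. TRIM28, the corepressor of KRAB zinc finger proteins, had log2 signals of 2.99 and 2.98 at 48 h and of 3.24 and 3.33 at 96 h, the shRNAs being closer to each other than the time points. Its log2 fold change was 0.04 ± 0.18 (SE). TRIM24, a coregulator of nuclear receptors, had -0.14, TRIM33, which acts on SMAD signalling, had 0.14, and TRIM66, a relative of TRIM24, had -0.06. None of the 4 had a fold of 1.5 at either time point.

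In the class with NHL repeats, TRIM2, TRIM3 and TRIM32 were lower with ALKBH3 shRNA at both time points and TRIM71 was too dim. TRIM2, a neuronal ligase, had log2 fold changes of -0.43 and -0.22, TRIM3 had -0.26 and -0.17, and TRIM32, a ligase mutated in a muscular dystrophy, had -0.14 and -0.15. Their adjusted p in limma was 0.853 or more. TRIM37, the MATH-domain ligase of peroxisomes and centrosomes, had -0.36 and -0.34, and its second probe 0.02 over the arrays.

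The remaining members with the largest differences kept their direction at both time points and were small. TRIM42 had a log2 fold change of 0.38 over the arrays, at a dim log2 signal of -6.23 to -5.70, and of 0.10 after normexp. TRIM47 had 0.24 and TRIM45, which carries a filamin domain, 0.18. TRIM11 had -0.16 and TRIM4, a ligase for RIG-I, -0.15.

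**Figure D4:**
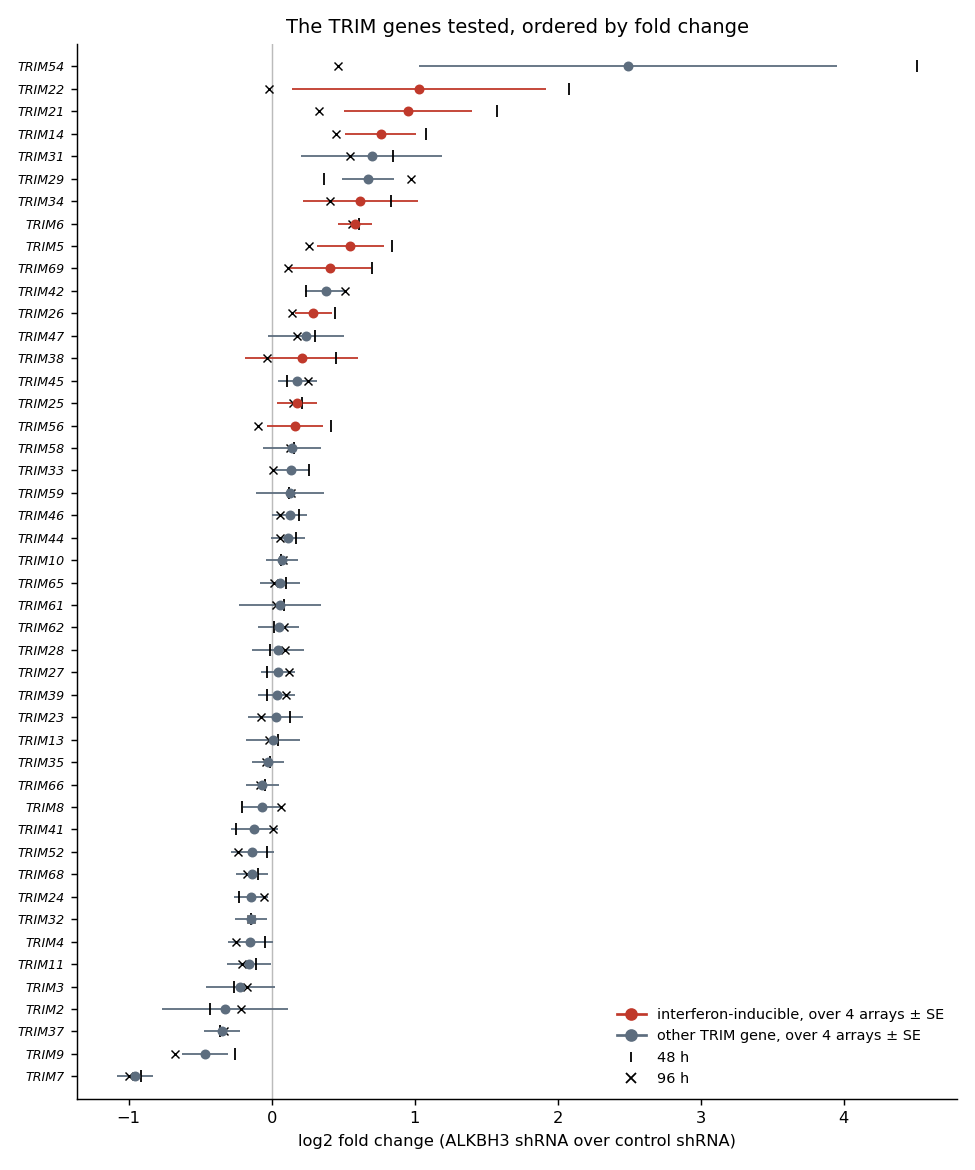
Log2 fold change, ALKBH3 shRNA over control shRNA, of the 46 TRIM genes tested, over 4 arrays with its standard error (dots and bars) and at 48 h (ticks) and 96 h (crosses), with interferon-inducible genes in red. The 11 red genes all lie right of 0, from 0.16 for TRIM56 to 1.03 for TRIM22, and TRIM7 at -0.95 closes the list. For TRIM54 at 48 h and for TRIM29 and TRIM31 at 96 h the control was not well above background, so those marks are not exact.

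Several TRIM genes were read by more than 1 tested probe. Of 16 such genes, 6 (TRIM3, TRIM13, TRIM37, TRIM39, TRIM41 and TRIM46) had probes with opposite signs, and in 0 did they exceed 0.5 in size on both sides of 0. The 17 untested members included TRIM50, above background on the 48 h arrays only, and TRIM77, on the 96 h arrays only. The other 15, among them the muscle genes TRIM55, TRIM63 and TRIM72, were well above background on 0 arrays.

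Genes that work with the TRIM proteins were read from lists. Of 8 TRIM or TRIM-like proteins under other names, 6 were tested and 0 met the cutoffs, against 1.04% of all genes higher and 0.234% lower. PML, the scaffold of nuclear bodies and itself interferon-inducible, had log2 fold changes of 0.71 at 48 h and 0.22 at 96 h, MID1 had 0.30 over the arrays and BSPRY -0.22. Of 20 genes of RIG-I and interferon signalling, 19 were tested. The cutoffs were met upward by 2, TLR3 and IFIH1 (1.04% of all genes), and downward by 0 (0.234%). With time point as a block 2, RIGI and ISG15, passed the adjusted p upward (2.96% of all genes). TLR3, a sensor of double-stranded RNA, had log2 fold changes of 2.80 and 1.13 at the time points, IFIH1 2.08 and 0.87, and RIGI, the target of TRIM25, 1.73 and 1.07. IFNB1, which encodes interferon beta, was well above background on the 48 h ALKBH3 shRNA array only and was not tested. It stood 2.65-fold above its 48 h control, with that control set to the weakest signal well above background on its array.

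Of 12 E2 enzymes, from which RING ligases take ubiquitin, all were tested and 0 met the cutoffs (1.04% of all genes higher, 0.234% lower). UBE2L6, which serves ubiquitin and ISG15, had log2 signals of 0.53 and 2.28 at 48 h and of 0.20 and 0.91 at 96 h, and a log2 fold change of 1.23 ± 0.48 (SE). UBE2V1, the partner of UBE2N in making chains, had -0.52 ± 0.16, with a limma adjusted p of 0.049 under the time point block. UBE2E3 had 0.26.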

How the data were processed

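The 4 RNAs had been hybridised to Agilent 4x44K arrays in the Cy3 channel. The authors deposited, for each array, spot intensities from Agilent Feature Extraction (version 10.7.3.1 in the file headers), background-subtracted on that array alone, and a table of log2 values that the authors had normalized between arrays, used as an alternative. The log2 of the processed intensity minus the 75th percentile of its array was used. Spots marked as not uniform or as outliers (180 to 379 an array) were removed, and replicate spots averaged. A probe well above background in at least 0.5 of its spots on both arrays of at least 1 shRNA was tested, and the brightest tested probe stood for its gene. Symbols came from accessions through the RefSeq table of GRCh38.p14, which left 9217 of 34127 probes unnamed and unused. Where the member rule asks for a gene name column, these symbols stood in.

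ALKBH3 shRNA was compared with control shRNA in limma 3.58.1 (R 4.3.3) by lmFit and eBayes without a covariate, and p-values were adjusted by Benjamini-Hochberg over all 14556 genes. As nothing says that the 4 RNAs came from separate cultures, p-values measure the spread between these arrays only. The array titles give no replicate number, so arrays were paired by time point. Deviations of arrays of the same time point correlated with r = 0.703, so time point is also given as a block. The limma comparison without a covariate was tried on simulated data with independent arrays, unlike the pairing by time point seen here. The block and time fits were not tried in that way. The number of arrays limits the precision.

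Named members are the interferon-inducible list, the PHD and bromodomain class, those past the cutoffs or the blocked adjusted p, and the 12 others with the largest differences of 1 direction. TRIM44, TRIM46, TRIM59, TRIM61 and other members outside that rule were named after their values were seen. The members, lists and tests were chosen with earlier results of these data known. The alternatives were each array left out, the block, no shRNA term, the 5 examples as the list, a lower cutoff of 1.5-fold, the methods' t-test, averaging the probes of a gene, testing probes above background on 4 arrays or with no filter, the authors' values, quantile normalization alone or after normexp (offset 50), normexp alone, and centring on the median or on the 75th percentile of probes above background everywhere. ChIP-seq and qRT-PCR data are not used here, and some marker genes are not reported here.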

Additional observations from a re-analysis of the deposited data

Results flagged for a closer look

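In 4 TRIM genes among those named the 48 h and 96 h log2 fold changes had opposite signs, each from 1 pair of arrays, and the difference was not tested. It was 2.09 in TRIM22 (2.08 at 48 h and -0.02 at 96 h). It was 0.48 in TRIM38 (0.45 and -0.03), 0.51 in TRIM56 (0.41 and -0.09) and -0.10 in TRIM28 (-0.0079 and 0.10). The 12 members named for the size of their difference had to keep 1 direction, so none of them could be counted here. Of all 46 tested TRIM genes, 23 were higher at both time points and 13 lower at both, against 5033 and 5184 of 14556 genes.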

How the results depend on the processing

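With time point as a replicate block, 3 TRIM genes passed the adjusted p (TRIM6, TRIM31, TRIM7), against 0 without it. At a 1.5-fold cutoff 2 genes were called higher (TRIM14, TRIM29) and 1 lower (TRIM7), where 415 and 187 of all 14556 were. Leaving out each array gave 0 to 5 called higher and 0 to 1 lower: 5 without the 96 h ALKBH3 shRNA array (TRIM14, TRIM21, TRIM22, TRIM31 and TRIM34), 1 without the 96 h control (TRIM54), and 1 lower without the 48 h control (TRIM7, -1.03). Over all genes the calls without the 96 h ALKBH3 shRNA array also grew, to 381 of 14779 higher, against 151 of 14556 with 4 arrays. An arm left with 1 array is assumed to vary like the other arm. The median of the interferon-inducible list was then 0.12 to 0.79 (log2 fold change), the lowest without the 48 h ALKBH3 shRNA array, when 8 of 11 were higher and 3 genes turned: TRIM22 (-0.27 to 2.33), TRIM38 (-0.29 to 0.71) and TRIM56 (-0.081 to 0.40). Without the 96 h control 10 of 11 were higher, TRIM38 being the exception at -0.050. The median of the other TRIM genes was -0.035 to 0.020 with an array left out, 0.0078 after quantile normalization, 0.0072 after centring on the median and 0.061 on the 75th percentile of probes above background on all arrays. With an array left out the sign also turned in TRIM28 (-0.13 to 0.22), TRIM2 (-0.83 to 0.18), TRIM47 (-0.046 to 0.52), TRIM3 (-0.47 to 0.033) and TRIM4 (-0.31 to 0.011). TRIM66 turned to 0.0083 with normexp, 0.0061 with normexp and quantile normalization, and 0.0062 with the authors' values. The median gap between 48 h and 96 h was 0.37 with normexp and quantile normalization. The number past the adjusted p for time was 18 with normexp, 19 with normexp and quantile normalization, 16 with the authors' values, 0 with no filter on dim probes and 0 without the shRNA term. The cause of these shifts was not tested. All 11 interferon-inducible genes stayed higher in every setting that kept all 4 arrays and the whole list. No other such count moved by over 1.5 times or median by over its spread. The block, the methods' t-test, the 1.5-fold cutoff and the missing shRNA term leave the fold changes as they were, so they could not alter a direction. The time test and the block could not be fitted with an array left out. Dim genes are limited by signal over background: with normexp the log2 fold change went from 0.67 to 0.09 in TRIM29, from 0.70 to 0.18 in TRIM31, from 2.49 to 0.92 in TRIM54 and from 0.38 to 0.10 in TRIM42.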
